A study of Mus musculus with 12 samples.

Results

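The respiratory chain genes described here are the 106 genes, of 32285 in the gene list, whose symbols begin with Nduf, Uqcr, Atp5, mt-Nd, mt-Co, mt-Cyt or mt-Atp, or name a Cox4 to Cox8 subunit or Sdha, Sdhb, Sdhc or Sdhd, with pseudogenes left out. Of these, 93 are encoded in the nucleus and 13 in mitochondrial DNA, and both sets are reported apart. The nuclear set held 36 genes of complex I, 8 of its assembly factors, 4 of complex II, 8 of complex III, 19 of complex IV, 17 of ATP synthase (complex V) and Cox7a2l, a factor that joins complexes III and IV. The mitochondrial set held 7 genes of complex I, 1 of complex III, 3 of complex IV and 2 of ATP synthase.

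Small intestinal organoids of wild-type BALB/c mice were kept for 4 days in 6 groups. Control organoids received neither T cells nor cytokines. A second group was co-cultured with 100000 allogeneic CD25highFoxP3-GFP+ Treg cells per well, with IL-2 at 30 U/ml and beads against CD3 and CD28. Tilted plates kept these cells from touching the organoids. In 3 further groups of such Treg cells, 10 µg/ml of antibody against IFNγ, against IL-10R or against both was added from the start. The last group received rIFNγ at 0.25 ng/ml and rIL-10 at 10 ng/ml without T cells, and is called cytokine-stimulated below. Live EpCAM+ cells of all 6 groups were marked with hashtag antibodies, pooled in each of 3 replicates and profiled by 3′ single-cell RNA sequencing. The labels name these replicates biological but do not say whether they came from separate mice. The p-values measure only how much differences between groups vary over these replicates.

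The respiratory chain passes electrons from NADH and succinate to oxygen through complexes I to IV, and the proton gradient that this builds drives ATP synthase. Mitochondrial DNA encodes core subunits of complexes I, III, IV and V, whereas complex II and most other subunits are encoded in the nucleus and imported, so that both genomes have to supply matching parts. In the small intestine, stem cells and enterocytes rely on oxidative phosphorylation, while Paneth cells are known for a more glycolytic metabolism.

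The 5 libraries used held 35985 called cells, and 11911 hashtag singlets passed the limits on UMIs (10000 to 90000), genes (3000 to 10000) and mitochondrial share (at most 8.5%). Each group had 1774 to 2120 of these cells and a median of 42289.5 to 48423 UMIs per cell in its replicates. Before these limits the libraries differed more. Called cells had medians of 3685.5 and 3485.5 UMIs in replicate 1 and of 23345 and 27317 in replicate 2. The only library used of replicate 3 had a median of 4427. The part of this in differences between replicates was not tested. Pairs of libraries shared 9 to 24 cell barcodes. Clusters of control cells, made without the member genes, gave 6 classes with enough cells for a test. ISC-like (2527 cells), TA-like (4627 cells), enterocyte-like (1503 cells) and goblet/Paneth-like cells (515 cells) were named from stem cell, transit-amplifying, absorptive and secretory markers. The enterocyte-like cluster was enriched alike for markers of enterocytes (2.85, log2) and of enterocyte progenitors (2.86), and was not split between them. The ISC-like class joins a cluster led by stem cell genes such as Lgr5 and a cluster led by mitotic genes such as Cenpf and Aspm along with the stem cell genes Olfm4 and Axin2. The latter held 46.0% of the ISC-like cells in controls and 40.7% after cytokines, and the part of this in the ISC-like results was not tested. The TA-like class joins several clusters, among them a cluster enriched alike for stem cell and transit-amplifying markers (0.62 each, log2). Another, led by Ube2c and Dmbt1, held 19.0% of the TA-like cells in controls and 24.7% after cytokines. The part of this mixture in the TA-like results was not tested. Ccne-high (1216 cells, led by the cyclin genes Ccne1 and Ccne2) and Areg-high cells (910 cells, led by the growth factor gene Areg) had no clear marker set and keep the names of their leading genes. The 224 endocrine-like cells were too few for a test, and 389 cells stayed unnamed. The interferon check list, which asks whether the cytokines reached the cells, had all 13 of its tested genes higher after the cytokines in enterocyte-like cells. T cell markers in the sorted cells summed to 1.48 to 3.06 CPM (UMIs scaled to 1000000 UMIs of a sum) over all cells, except in 2 samples of Treg cells with anti-IL-10R, with 8.48 in replicate 2 and 21.2 in replicate 3. In the latter, enterocyte-like cells held 60.3 and Ccne-high cells 31.1 CPM of T cell markers. Their part in the values of that group was not tested.

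In control organoids, UMIs of both sets made up a larger share in enterocyte-like than in ISC-like cells, and the smallest shares were found among secretory cells. The 93 nuclear genes summed to 4.63% ± 0.33 (SD, n = 3) of all UMIs in ISC-like, 5.16% ± 0.33 in TA-like, 6.12% ± 0.68 in enterocyte-like cells, whereas goblet/Paneth-like cells had 3.25%. The 13 mitochondrial genes summed to 4.01% ± 0.13, 4.05% ± 0.14, 5.29% ± 0.29 and 3.03% in the same order. Endocrine-like cells had the lowest mitochondrial share (2.12%) and a nuclear share of 3.23%. Classes come from clustering of the same cells, so these levels are a description without a test. The reads are 3′ tags, of which a gene's number depends on its own 3′ end, so a level is compared between cells and never between genes.

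Of 86 nuclear genes with at least 100 UMIs in control cells and none at 0, 72 were higher in enterocyte-like than in ISC-like cells in all 3 replicates, with a median difference of 0.31 (log2). The 6 genes that were lower in all 3 replicates were 5 assembly factors of complex I and Atp5g2. Ndufaf7, Ndufaf2, Ndufaf5, Ndufaf6 and Ndufaf4, which are not part of the finished complex, differed by -1.45, -0.68, -0.56, -0.51 and -0.30, and Atp5g2, 1 of 3 genes for subunit c of the rotor, by -0.18. Cox7a1, an isoform of complex IV best known from heart and muscle, stood apart at 3.98 ± 0.09 (SD, n = 3). It was followed by Ndufb10 (1.03), Ndufa6 (0.86), Uqcrfs1, the Rieske protein of complex III (0.85), and Uqcrq (0.76). Of the 86 nuclear genes, 46 had their highest control mean of the 6 classes in enterocyte-like cells. Others, among them Atp5g1, Atp5g3 and Ndufa4, were highest in Areg-high cells. Of the 13 mitochondrial genes, 12 were higher in enterocyte-like cells in every replicate, with a median difference of 0.38. Differences ranged from 0.21 for mt-Nd5, which was higher in 2 of 3 replicates, to 0.46 for mt-Nd1 and mt-Co1. In goblet/Paneth-like cells, 83 nuclear and 12 mitochondrial genes were lower than in ISC-like cells in all 3 replicates, with medians of -0.53 and -0.60. These counts of higher and lower genes between classes were not made for all genes. CPM are shares of the UMIs of a sum, so a shift of the members cannot be told apart from one of most genes.

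**Figure D1:**
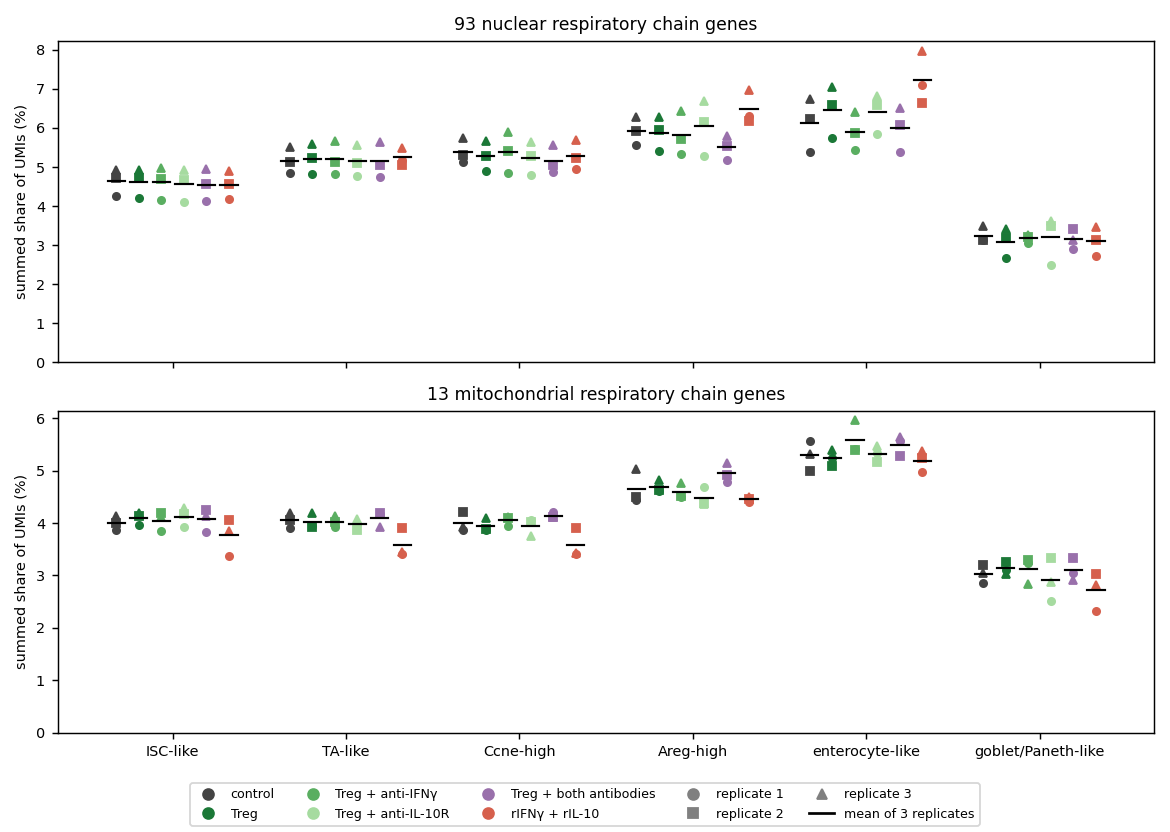
Summed share of UMIs (%) of the 93 nuclear (top) and 13 mitochondrial genes (bottom) in 6 cell classes, where colours are the 6 groups, symbols the 3 replicates and bars their means. Cytokine-stimulated enterocyte-like cells have the highest nuclear mean (7.23%), while the mitochondrial means of cytokine-stimulated ISC-like, TA-like, Ccne-high and goblet/Paneth-like cells (3.76%, 3.59%, 3.58% and 2.73%) lie below those of their controls.

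To ask how the cytokines change these genes, cytokine-stimulated cells were compared with control cells in each class. Nuclear genes rose mainly in enterocyte-like cells. There, 43 of 88 tested nuclear genes were called higher and 0 lower (edgeR's quasi-likelihood test, adjusted p below 0.05), against 13.4% higher and 12.1% lower among all genes tested. The median nuclear change was 0.22 (log2), beside -0.01 over all genes. The summed nuclear share moved from 6.12% ± 0.68 to 7.23% ± 0.68 and was higher in 3 of 3 replicates, by 0.40, 0.09 and 0.24 (log2). In Areg-high cells 15 of 87 were higher and 1 lower (6.81% and 5.94% of all genes), with a median of 0.13. In TA-like cells 15 of 88 were higher and 3 lower (13.8% and 11.9%), a share of higher genes close to that of all genes, with a median of 0.05.

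In ISC-like cells, 2 of 87 nuclear genes were higher and 9 lower (7.69% and 7.18% of all genes), with a median of -0.04. The share of lower genes was close to that of all genes, and the share of higher genes was below it. The ISC-like sums of replicates 1, 2 and 3 held 164, 179 and 74 control cells, and 42, 99 and 31 after cytokines. Enterocyte-like sums held 76, 66 and 50 control cells, and 169, 117 and 49 after cytokines. With equal numbers of cells in every sum, which leaves fewer cells, 0 nuclear genes were called in ISC-like cells. In Ccne-high cells 0 of 86 were higher and 1 was lower (5.03% and 4.85%). In goblet/Paneth-like cells 0 of 86 were called (1.16% and 1.08%) by edgeR and by DESeq2, with 5 (5.81%) at an unadjusted p under 0.05, beside 12.7% of all genes. Over all classes, 56 of 89 tested nuclear genes were called at least once, 34 of them in a single class. Such a count was not made for all genes, so it cannot be read as a trait of the members. The untested nuclear genes, Cox4i2, Cox7b2, Cox8b and Cox8c, were too low in every class. In each class 86 to 88 of the 93 passed the filter on low counts. The mitochondrial genes went down where they were called: 7 of 13 in TA-like, 5 in Ccne-high, 3 in ISC-like and 1 each in Areg-high and enterocyte-like cells, with none higher in any class. Among all genes, 11.9%, 4.85%, 7.18%, 5.94% and 12.1% were lower in the same order. The single calls in Areg-high and enterocyte-like cells were thus close to or below the share of all genes. In goblet/Paneth-like cells none was called by edgeR or DESeq2, and 1 had an unadjusted p under 0.05. The median mitochondrial changes were -0.12 in TA-like, -0.17 in Ccne-high, -0.07 in ISC-like and -0.04 in enterocyte-like cells.

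These counts depend on how replicates enter the test. When replicate was not a block in the fit, 0 members were called in any class. The 43 calls in enterocyte-like cells became 5 without replicate 1, 58 without replicate 2 and 8 without replicate 3, and 26 with equal numbers of cells in every sum. In TA-like cells the calls became 1 higher and 5 lower without replicate 1, and 2 higher and 0 lower without replicate 3. Shares of all genes are not given here for these settings, so the change in calls cannot be read as a trait of the members.

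**Figure D2:**
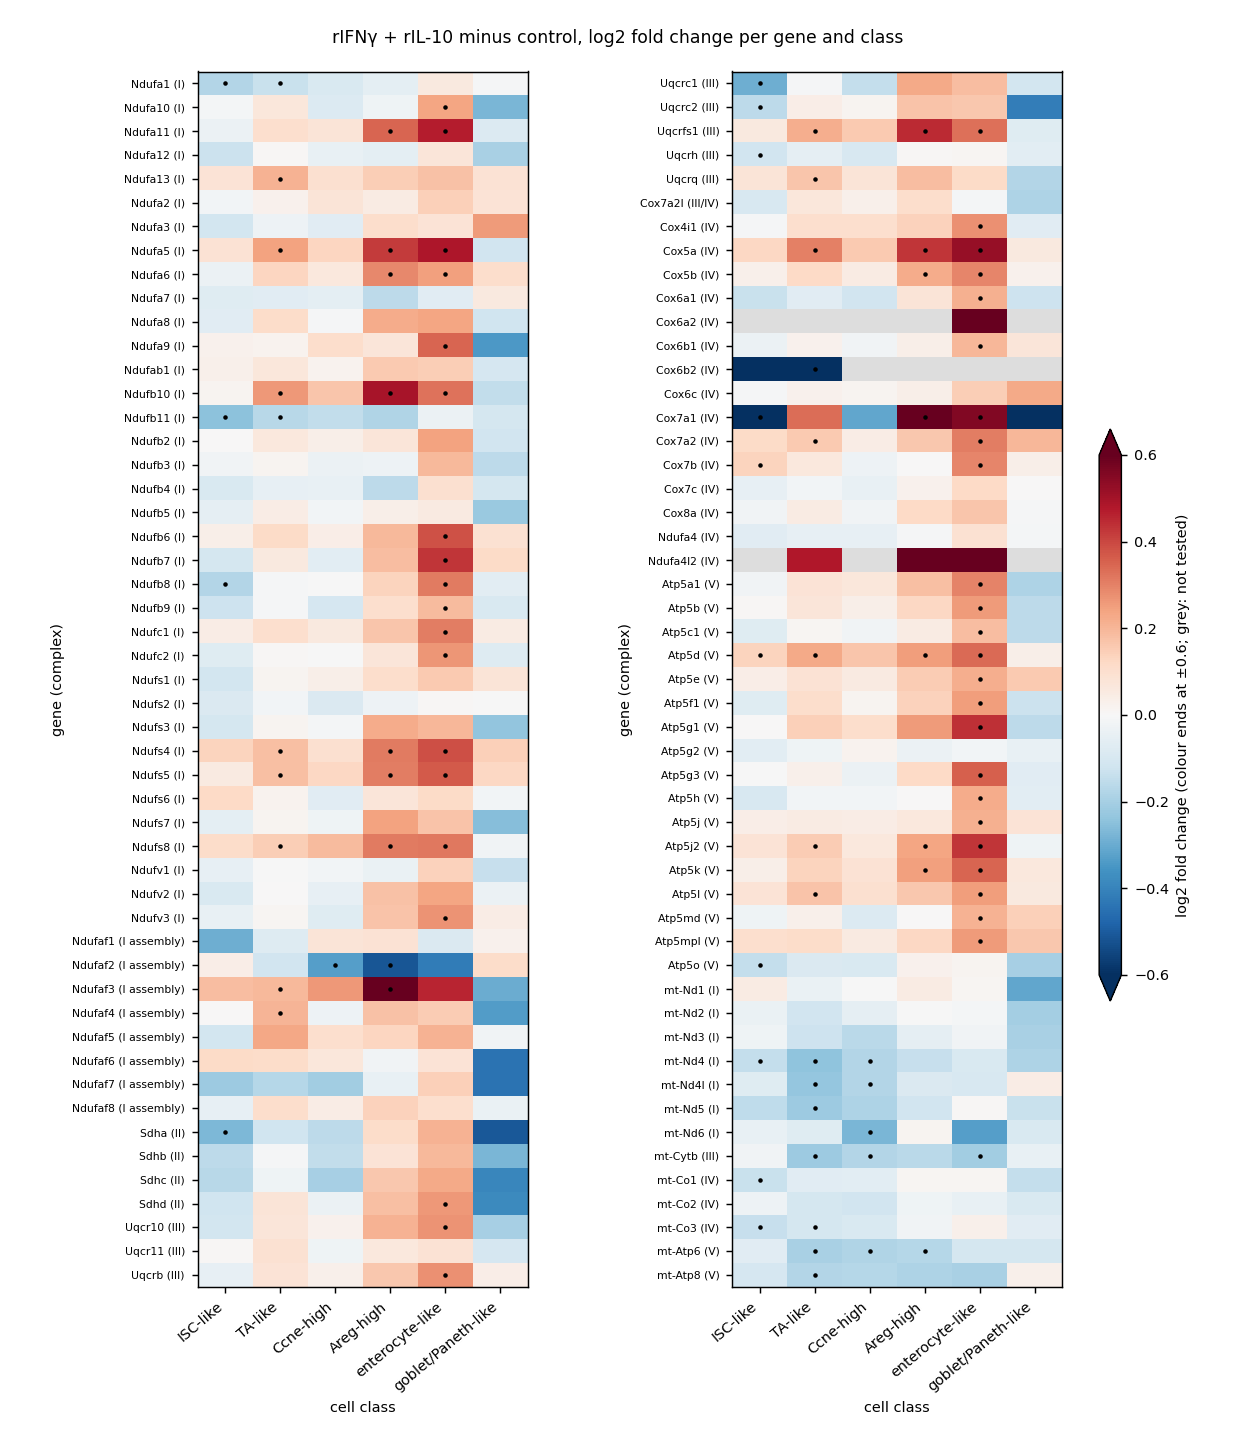
Log2 fold change of each tested gene (rows, with its complex) in cytokine-stimulated against control cells of 6 classes (columns), red for higher and blue for lower, with a dot where the adjusted p is below 0.05 and grey where a gene was not tested. Red fields with dots concentrate in the enterocyte-like column, where 43 nuclear genes were called higher, and the mitochondrial genes at the lower right are mostly blue in the TA-like and Ccne-high columns.

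Complex I takes electrons from NADH. Of its 36 nuclear genes, 16 were higher in enterocyte-like cells, 7 in Areg-high cells and 6 in TA-like cells. Among all genes, 13.4%, 6.81% and 13.8% were higher in these classes. In TA-like cells 2 of the 36 were lower, and the share of higher genes was close to that of all genes. The same shares of all genes stand beside the counts of higher genes in the other complexes below. In enterocyte-like cells the largest change among the called genes of complex I was that of Ndufa5, an accessory subunit, with 367, 440 and 498 CPM in control replicates 1, 2 and 3 and 650, 509 and 676 after cytokines. All 3 stimulated values lay above all control values (log2 fold change 0.48, SE 0.10, adjusted p = 0.00132). In Areg-high cells Ndufa5 went from 414, 514 and 526 to 662, 564 and 709 (0.42, SE 0.09, adjusted p = 0.00354), again without overlap. In TA-like cells the values of Ndufa5 overlapped, with 435, 491 and 538 against 566, 508 and 604 (0.24, SE 0.06, adjusted p = 0.00749). Ndufa11, a subunit of the membrane arm, had 310, 362 and 427 against 523, 437 and 579 in enterocyte-like cells (0.47, SE 0.09, adjusted p = 0.000508). Ndufb10, another membrane-arm subunit, changed by 0.50 (SE 0.12, adjusted p = 0.00541) in Areg-high and by 0.33 in enterocyte-like cells. Ndufs4, Ndufs5 and Ndufs8, the last of which carries iron-sulfur clusters, were higher in the same 3 classes, with 0.39, 0.37 and 0.31 in enterocyte-like cells.

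Some genes of complex I were lower in ISC-like or TA-like cells. Ndufb11 had 337, 345 and 435 CPM in control ISC-like cells and 253, 314 and 360 after cytokines, lower in each replicate although the groups overlap (-0.25, SE 0.06, adjusted p = 0.00529). In TA-like cells it differed by -0.17 (SE 0.04, adjusted p = 0.00196). Ndufa1 was also lower in both classes (-0.18 and -0.13), and Ndufb8 was lower in ISC-like cells (-0.18) but higher in enterocyte-like cells (0.31). Assembly factors of complex I did not move as a group, and 0 of 8 were called in enterocyte-like cells. Ndufaf2 was lower in Areg-high (-0.51, SE 0.14, adjusted p = 0.0167) and Ccne-high cells (-0.33, SE 0.09, adjusted p = 0.0152). Ndufaf3 was higher in Areg-high cells, with 34.2, 30.2 and 29.1 against 48.9, 42.8 and 55.8 CPM (0.61, SE 0.17, adjusted p = 0.0195), and in TA-like cells (0.19). The groups did not overlap in Areg-high cells.

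Complex II, succinate dehydrogenase, links the TCA cycle to the chain. Its 4 genes are all nuclear. In enterocyte-like cells Sdhd, a membrane anchor, was higher (0.26, SE 0.09, adjusted p = 0.0408), with 224, 298 and 346 against 326, 307 and 406 CPM. Sdha, Sdhb and Sdhc had values of 0.21, 0.19 and 0.23 that did not pass. In ISC-like cells the catalytic subunit Sdha fell by 0.27 (SE 0.07, adjusted p = 0.00708), from 144, 138 and 133 to 105, 125 and 109 CPM, without overlap. Sdhb, Sdhc and Sdhd had values of -0.16, -0.16 and -0.12 there.

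Complex III hands electrons from ubiquinol to cytochrome c. Of its 8 nuclear genes 3 were higher in enterocyte-like cells, namely Uqcrb (0.28), Uqcr10 (0.27) and Uqcrfs1 (0.33, SE 0.09, adjusted p = 0.0138). Uqcrfs1 rose most in Areg-high cells, with 290, 381 and 381 CPM in controls and 446, 449 and 535 after cytokines (0.45, SE 0.09, adjusted p = 0.00159), and the groups did not overlap. In ISC-like cells 3 of the 8 genes were lower, beside 7.18% of all genes. Among them was Uqcrc1, a core subunit, with 221, 250 and 256 against 170.5, 221 and 192 (-0.29, SE 0.05, adjusted p = 0.000429). The highest stimulated value lay just below the lowest control value. Uqcrc2, its partner, differed by -0.16 (adjusted p = 0.0426) and Uqcrh by -0.11 (adjusted p = 0.0458).

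Complex IV reduces oxygen, and 8 of its 14 tested nuclear genes were higher in enterocyte-like cells. Cox5a had 815, 1055 and 1236 CPM in control replicates and 1481, 1243 and 1748 after cytokines (0.52, SE 0.09, adjusted p = 0.000331). The groups did not overlap, and replicate 2 moved least. Cox5a also rose in Areg-high (0.43, SE 0.09) and TA-like cells (0.30, SE 0.07). Cox7a1 had 317, 491 and 389 against 506, 614 and 650 (0.56, SE 0.10, adjusted p = 0.000368) in enterocyte-like cells, whereas its level in ISC-like cells fell from 20.5, 32.7 and 22.9 to 11.7, 22.6 and 16.5 (-0.60, SE 0.15, adjusted p = 0.0064). In Areg-high cells Cox7a1 was higher (0.69, SE 0.13). Its ubiquitous partner Cox7a2 rose by 0.31 in enterocyte-like and 0.16 in TA-like cells.

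Of the ubiquitous forms in other isoform pairs of complex IV, Cox4i1, Cox6a1 and Cox6b1 were higher in enterocyte-like cells (0.28, 0.21 and 0.20), while Cox8a (0.16) and Ndufa4 (0.09) did not pass. Of the tissue-restricted forms, Cox8b and Cox8c had 0 UMIs in the enterocyte-like cells of both groups, and Cox4i2 had 1 UMI after cytokines. Cox6a2, the heart and muscle partner of Cox6a1, had 0, 8 and 0 UMIs in control and 28, 14 and 8 UMIs in cytokine-stimulated enterocyte-like cells (1.83, SE 0.81, adjusted p = 0.103), which did not pass. Cox6b2, the testis form of Cox6b1, was lower in TA-like cells, with 3.06, 2.59 and 3.09 CPM against 1.31, 1.67 and 1.75 (-0.83, SE 0.28, adjusted p = 0.0347). Ndufa4l2, known as a hypoxia-induced relative of Ndufa4, had 1.59, 7.43 and 2.16 CPM in control and 3.36, 14.0 and 7.73 in cytokine-stimulated enterocyte-like cells (1.11, SE 0.42, adjusted p = 0.057).

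ATP synthase had the largest share of higher genes, 15 of 17 in enterocyte-like cells. The other 2, Atp5g2 and Atp5o, differed by -0.01 and 0.02. The 3 genes for subunit c, which yield the same mature protein, did not move alike. Atp5g1 had 1128, 1249 and 1492 against 1933, 1412 and 1966 CPM (0.44, SE 0.09, adjusted p = 0.00111), and Atp5g3 had 1025, 932 and 1047 against 1381, 1111 and 1437 (0.36, SE 0.07, adjusted p = 0.000573). Atp5g2 had 754, 861 and 931 against 824, 838 and 889. Atp5d, the delta subunit of the central stalk, was the only nuclear gene called in 4 classes, all higher. It changed by 0.34 in enterocyte-like, 0.25 in Areg-high, 0.23 in TA-like and 0.14 in ISC-like cells. Atp5j2, a subunit of the membrane part, changed by 0.43 (SE 0.08, adjusted p = 0.000398) in enterocyte-like cells.

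The promoters of 4 of these genes are shown because they illustrate the short words of known regulators of respiratory genes, and because each gene was called in at least 2 classes. They are RefSeq sequences of build GRCm38.p6, from 250 bases before to 50 after the start, 5′ to 3′ on the strand of the gene, in lower case with matches in capitals. Ndufa5 (chr6:24527477-24527776, minus strand) holds the word of NRF1, Atp5k (chr5:108434350-108434649, minus strand) the words of NRF1 and of ETS factors such as GABP, and Atp5j2 (chr5:145191492-145191791, minus strand) that of YY1. Cox5a (chr9:57520982-57521281, plus strand) holds none of them.
Ndufa5: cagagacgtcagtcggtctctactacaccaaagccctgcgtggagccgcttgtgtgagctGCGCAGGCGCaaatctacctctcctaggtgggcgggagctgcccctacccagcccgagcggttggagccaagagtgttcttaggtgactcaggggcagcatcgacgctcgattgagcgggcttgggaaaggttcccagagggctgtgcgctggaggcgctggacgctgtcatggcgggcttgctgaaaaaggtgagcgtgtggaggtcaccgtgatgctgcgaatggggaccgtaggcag
Atp5k: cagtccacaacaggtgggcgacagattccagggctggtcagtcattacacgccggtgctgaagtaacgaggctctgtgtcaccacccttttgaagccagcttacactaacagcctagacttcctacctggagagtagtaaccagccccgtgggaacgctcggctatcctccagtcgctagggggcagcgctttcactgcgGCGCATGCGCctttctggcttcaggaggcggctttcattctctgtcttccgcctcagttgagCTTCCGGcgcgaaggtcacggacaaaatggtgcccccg
Atp5j2: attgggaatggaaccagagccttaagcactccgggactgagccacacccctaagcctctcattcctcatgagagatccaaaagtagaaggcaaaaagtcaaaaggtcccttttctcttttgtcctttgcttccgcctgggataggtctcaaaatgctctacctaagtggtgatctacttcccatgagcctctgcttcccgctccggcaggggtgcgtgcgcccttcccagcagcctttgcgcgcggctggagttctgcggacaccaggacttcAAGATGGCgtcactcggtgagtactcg
Cox5a: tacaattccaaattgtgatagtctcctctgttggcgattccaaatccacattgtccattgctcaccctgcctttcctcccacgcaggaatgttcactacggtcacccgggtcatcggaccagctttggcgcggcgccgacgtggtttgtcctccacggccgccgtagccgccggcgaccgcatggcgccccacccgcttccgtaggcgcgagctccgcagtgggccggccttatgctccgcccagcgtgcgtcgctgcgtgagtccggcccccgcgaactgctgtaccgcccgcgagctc

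Of the 93 nuclear genes, 75 matched a promoter in the table. The words searched on both strands were, for NRF1, GCGC and TGCGC with any base between them, CCGGAAG for ETS factors and AAGATGGC for YY1, and no word contains another. They were found in 18 (24%), 18 (24%) and 9 (12%) of the 75 promoters, beside 4.6%, 8.86% and 2.75% of all 32851 promoters of the same length. At least 1 word was present in 39 of 75 (52%), beside 14.7% of all. All promoters were alike to those of the members only in length, and were not matched for expression or base content. A higher share among the members therefore cannot be read as particular to respiratory chain genes. These are matches of letters, and binding was not measured.

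The mitochondrial genes are transcribed as long precursors from both strands of a single circle, and several share a processed transcript, such as mt-Atp8 with mt-Atp6 and mt-Nd4l with mt-Nd4. In TA-like cells mt-Cytb of complex III had 4018, 4191 and 4529 CPM in controls and 3294, 3709 and 3630 after cytokines (-0.22, SE 0.04, adjusted p = 0.00069), without overlap. Both genes of ATP synthase were lower, mt-Atp6 with 6176, 6361 and 7277 against 5145, 5929 and 5755 (-0.19, SE 0.04, adjusted p = 0.00206) and mt-Atp8 by -0.17. Of complex I, mt-Nd4 (-0.24), mt-Nd4l (-0.23) and mt-Nd5 (-0.22) were lower, while mt-Nd1, mt-Nd2 and mt-Nd3 had values of -0.04, -0.11 and -0.12 that did not pass. The complex IV gene mt-Co3 was lower by a small amount (-0.10, SE 0.03, adjusted p = 0.0216).

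In Ccne-high cells the same kinds of genes were lower, namely mt-Cytb, mt-Atp6 and mt-Nd4 (each -0.18), mt-Nd4l (-0.17) and mt-Nd6 (-0.27). In ISC-like cells the called genes were mt-Nd4 and mt-Co3 (each -0.14) and mt-Co1 (-0.13). In enterocyte-like cells only mt-Cytb passed, with 5397, 4833 and 5843 against 4412, 4456 and 5290 (-0.21, SE 0.06, adjusted p = 0.0148), lower in every replicate with overlapping groups. Most mitochondrial genes had values near 0 there, such as mt-Co1 and mt-Nd1 (0.01 each).

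**Figure D3:**
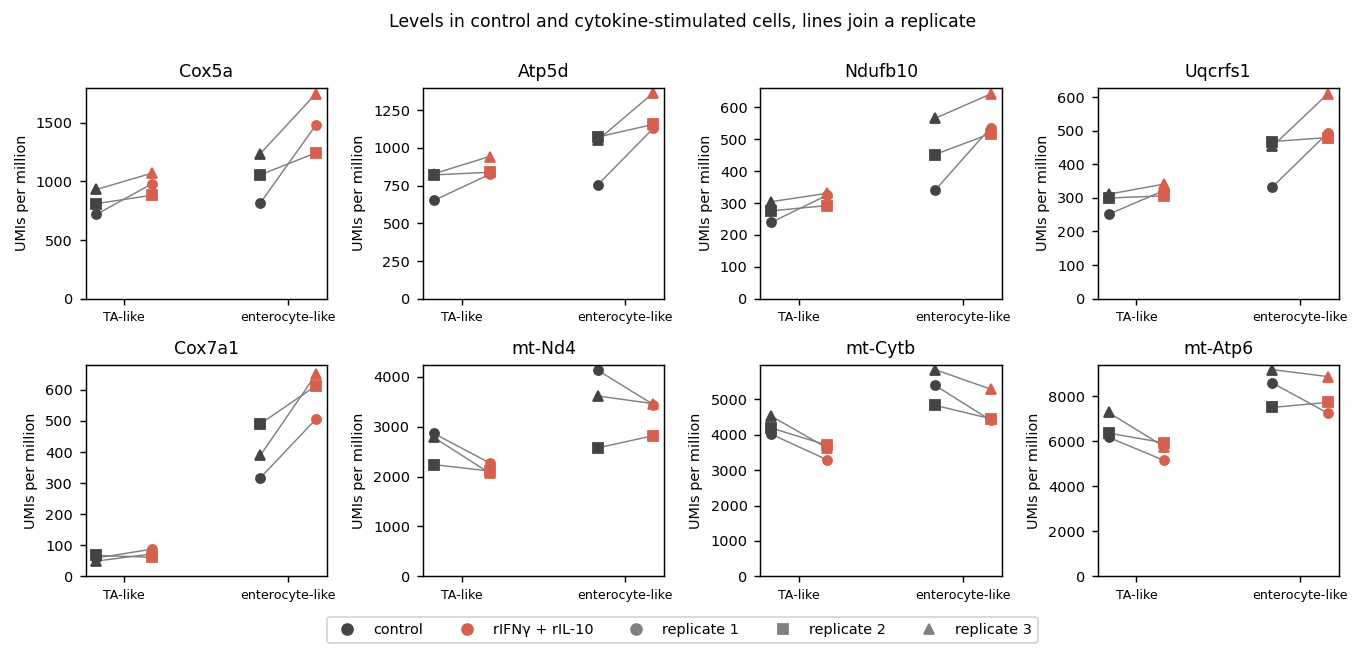
CPM of 5 nuclear and 3 mitochondrial genes in TA-like and enterocyte-like cells, with control in grey, cytokine-stimulated in red and lines joining a replicate. Cox5a and Cox7a1 rise in each replicate of enterocyte-like cells, and mt-Cytb falls in each replicate of both classes.

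The limit on mitochondrial share acts on these 13 genes directly. It removed 12.2%, 9.39% and 13.3% of cytokine-stimulated cells in replicates 1, 2 and 3, and 7.88%, 3.59% and 8.73% of control cells. With a limit of 20% instead, the calls in ISC-like cells turned from 3 lower to 2 higher mitochondrial genes, mt-Co3 and mt-Nd4 moved to 0.02 and 0.01, and the 5 calls in Ccne-high cells became 0. In TA-like cells 6 mitochondrial genes were lower under this limit. The nuclear calls in ISC-like cells went from 2 higher and 9 lower to 0 higher and 20 lower, and those in enterocyte-like cells from 43 to 29.

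**Figure D4:**
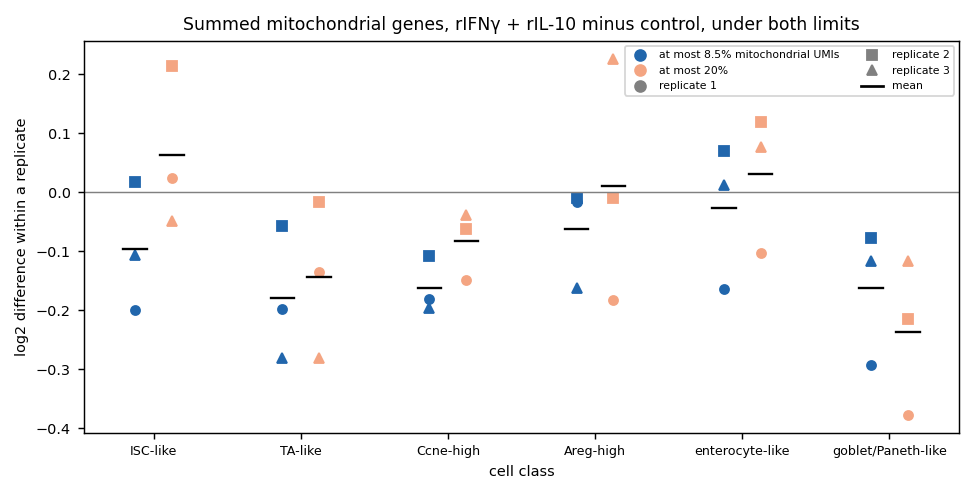
Difference of the summed mitochondrial genes within each replicate (log2, cytokine-stimulated minus control) in 6 classes, with cells of at most 8.5% (blue) or 20% (orange) mitochondrial UMIs and bars for the mean. The ISC-like mean moves from below 0 to 0.06, while all 3 TA-like replicates stay below 0 under both limits.

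Since members were called in enterocyte-like but not in ISC-like cells or with the opposite sign, the difference of both cytokine effects was tested itself. It was above 0 for 32 of 89 nuclear genes and below 0 for 0, against 5.92% and 6.08% of all genes. The median difference was 0.26 for nuclear genes and -0.01 for mitochondrial genes, of which 1 of 13, mt-Co3, was called (0.17, SE 0.06). Among the called genes Cox7a1 differed most (1.16, SE 0.18), and Ndufb7 (0.54), Ndufa11 (0.51), Ndufb8 (0.49), Uqcrc1 (0.49) and Sdha (0.49) followed. Without replicate as a block 0 nuclear genes were called, and 1, 57 and 4 were called without replicate 1, 2 and 3. Among all genes, 75 of 11528 were above and 84 below 0 without the block. They were 128 and 176 of 11137 without replicate 1, 825 and 705 of 11319 without replicate 2, and 166 and 160 of 12041 without replicate 3. The nuclear share without the block or without replicate 1 was thus not above that of all genes.

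Other measures moved with the group in the same cells. In enterocyte-like cells, dissociation and stress genes summed to 1936, 986 and 1293 CPM in controls and 426, 650 and 554 after cytokines, and 5 of 7 tested genes of that list were lower. Markers of ISC-like cells summed to 191, 124 and 140 against 64, 91 and 64 in the enterocyte-like cells, and enterocyte markers to 22601, 30553 and 33716 against 21099, 19709 and 31775. Markers of enterocyte progenitors, some of them shared with the enterocyte list, summed to 24474, 32667 and 38755 against 22371, 21818 and 34883. The part of these values in the respiratory chain result was not tested. Within a sum, more RNA of these genes per cell cannot be told apart from more cells of an enterocyte-like state rich in them.

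Of the pathways around the chain, glycolysis had the largest share of its tested genes called in enterocyte-like cells. Of all genes tested, 13.4% were higher and 12.1% lower there, and 13.8% and 11.9% in TA-like cells. In enterocyte-like cells 9 of 15 tested glycolysis genes were higher and 0 lower, among them Pfkp (0.77) and Hk1 (1.65), which act at early steps, and in TA-like cells 12 of 15 were higher. Of the TCA cycle, 6 of 18 genes were higher and 0 lower in enterocyte-like cells, including Cs, citrate synthase (0.77, SE 0.12). Among cytochrome c and assembly factors outside the rule, 5 of 42 were higher and 1 lower, with Cycs, somatic cytochrome c, at 0.76 (SE 0.12). Of the mitochondrial ribosome, 9 of 78 genes were higher and 2 lower in enterocyte-like cells, and 25 higher and 3 lower in TA-like cells. Among 25 regulators of mitochondrial transcription and biogenesis, 4 were higher and 1 lower in enterocyte-like cells, with a median of -0.10. The shares of higher genes among the assembly factors, the mitochondrial ribosome and these regulators were close to that of all genes in enterocyte-like cells. Ppargc1a, the coactivator PGC-1α, rose by 1.82 (SE 0.23), Slirp, which stabilizes mitochondrial mRNA, by 0.56, the ETS factor Gabpa by 0.51 and Esrra by 0.28. Tfam, which packages and transcribes mitochondrial DNA, fell by 0.41 (SE 0.12).

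Co-culture with Treg cells, alone or with antibodies, gave no call for any member by edgeR after the filter on low counts. Each treated group was compared with control and each antibody group with Treg cells alone, in 6 classes. Of all gene tests, the share called was 0.187% for Treg cells, 0.0111% for Treg cells with anti-IFNγ, 0.474% with anti-IL-10R and 0.00792% with both antibodies, each against control. Against Treg cells alone it was 0.212% with anti-IFNγ, 0% with anti-IL-10R and 0.25% with both. For members, edgeR called 0 in each after the filter. Without the filter, edgeR did call members in these comparisons, as given in the closing section. DESeq2 called 2, Ndufb4 (-0.29) and Cox7b (-0.26), both lower in Areg-high cells of Treg cells with both antibodies against control. The antibody comparisons share the Treg samples, and the comparisons with control share the control samples.

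At an unadjusted p under 0.05, lower nuclear members exceeded the share of all genes in some classes with anti-IFNγ but not in others. In enterocyte-like cells of Treg cells with anti-IFNγ against Treg cells alone, 45 of 88 nuclear genes had such a p, all lower, with a median of -0.16, beside 9.13% of all genes in either direction. With both antibodies against Treg cells alone there were 21, all lower, with a median of -0.13 (7.03% of all genes). In Areg-high cells with both antibodies there were 36 of 87 against control (6.70% of all genes) and 27 against Treg cells alone (7.73%), all lower. In Ccne-high cells with both antibodies there were 22 of 86 against control, all lower (8.61%). In the other 19 combinations of class and comparison with anti-IFNγ, 0 to 8 nuclear genes were lower. With anti-IFNγ against Treg cells alone, these were 0 in Areg-high, Ccne-high and goblet/Paneth-like cells and 1 each in ISC-like and TA-like cells. After the filter on low counts, none of these genes passed the adjusted threshold of edgeR. The smallest adjusted p in the first of these comparisons was 0.235, for Ndufa4l2. Summed nuclear shares in enterocyte-like cells were 6.46% ± 0.67 (SD, n = 3) with Treg cells, 5.91% ± 0.49 with anti-IFNγ, 6.42% ± 0.51 with anti-IL-10R and 5.99% ± 0.57 with both, beside 6.12% ± 0.68 in controls. Within replicates 1, 2 and 3, the share with Treg cells was above control by 0.090, 0.082 and 0.067 (log2). The share with anti-IFNγ differed from Treg cells alone by -0.080, -0.16 and -0.14, and that with both antibodies by -0.093, -0.11 and -0.12. A sum over members has no test.

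In the enterocyte-like cells, Cox5a, with 815, 1055 and 1236 CPM in controls, had 971, 1206 and 1332 with Treg cells, 813, 979 and 1210 with anti-IFNγ, 961, 1220 and 1325 with anti-IL-10R and 852, 1008 and 1197 with both. In each replicate, both groups with anti-IFNγ were below Treg cells alone. Ndufa4l2 had 3.40, 11.03 and 13.5 with Treg cells and 1.37, 4.74 and 3.08 with anti-IFNγ (-1.56, SE 0.44), lower in 3 of 3 replicates. Its values in controls, 1.59, 7.43 and 2.16, also lay below those with Treg cells in each replicate (1.24, SE 0.42, adjusted p = 0.575). The same order was seen for Atp5j, with 797, 939 and 1089 against 697, 768 and 944 (-0.26, SE 0.08, adjusted p = 0.278). For mitochondrial genes, 0 to 4 of 78 tests in each of these comparisons had an unadjusted p under 0.05 in either direction.

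**Figure D5:**
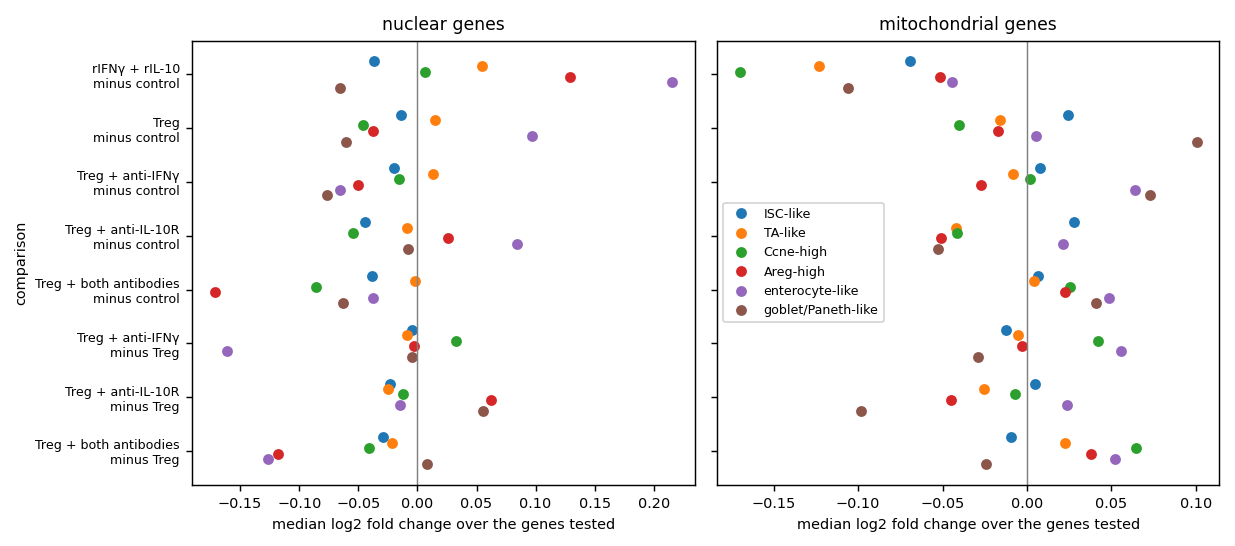
Median log2 fold change over the tested nuclear (left) and mitochondrial genes (right) for each of 8 comparisons, with colours for 6 classes. The largest nuclear median is that of enterocyte-like cells after cytokines (0.22), and the lowest is that of Areg-high cells with Treg cells and both antibodies against control (-0.17).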

How the data were processed

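Per the submitters' processing notes, the authors aligned the reads with Cell Ranger 7.0.0 to GRCm38 (mm10) and deposited raw UMI counts per gene and hashtag for each called cell. These counts are neither normalized nor filtered further. The 106 member genes and all lists were chosen with earlier results of these data known.

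In 5 of 6 libraries, cells were assigned to hashtags by HTODemux at a positive quantile of 0.99 (Seurat 5.3.0). The study had excluded the other library, and it was not used here. The limits on cells follow the study, and doublets within a hashtag were not removed. An alternative removed cells by their Scrublet score, which found known hashtag doublets poorly in most libraries. Control cells were clustered (Leiden, resolution 1, scanpy 1.11.5) without member, interferon or antigen presentation genes. Of the 11 clusters, the secretory cluster was split further by a second Leiden run at a lower resolution. Its subclusters gave the goblet/Paneth-like and endocrine-like cells and part of the unnamed cells. All cells were assigned to these subclusters and the other clusters over 515 genes. This returned 86.4% of control cells to their own class. These control cells had also defined the clusters. When profiles came from the other replicates, 81.5%, 81.4% and 84.3% of control cells of replicates 1, 2 and 3 kept their class. The assignment of cells of the other groups was not tested. UMIs were summed per class, group and replicate. These sums held 10 to 431 cells and 312038 to 21657308 UMIs, which sets their precision. Per class, 1 fit held the sums of all 6 groups with replicate as a block. The test was the quasi-likelihood test of edgeR 4.0.16 (R 4.3.3) after filterByExpr and TMM scaling, with Benjamini-Hochberg adjustment over all genes of a class and comparison. Each replicate pools all groups in the same libraries, which pairs the samples. Deviations from group means correlated between groups of the same replicate with means of 0.17 to 0.45 over the classes, and of different replicates with -0.27 to -0.15. Deviations from a mean of 3 replicates sum to 0 within a group, which by itself pushes the latter values below 0. The test was tried on simulated counts first. DESeq2 1.42.0 was an alternative. Fold changes are log2.

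Named genes were all mitochondrial genes, the 16 nuclear genes called in most classes, the 3 largest called changes in each class, isoform pairs, the Atp5g genes, the Sdh genes and, in other comparisons, up to 10 called genes, of which there were 0. Genes named beyond these were chosen after their values were seen. Processed pseudogenes and nuclear copies of mitochondrial DNA can share reads with several members, which makes their counts uncertain.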

Additional observations from a re-analysis of the deposited data

Results flagged for a closer look

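The cytokine effect (log2, cytokine-stimulated minus control) differed between enterocyte-like and ISC-like cells for 32 of 89 nuclear and 1 of 13 mitochondrial genes in a test of the difference itself (edgeR's quasi-likelihood test on the sums of both classes, adjusted p below 0.05), each time with the higher value in enterocyte-like cells. Of these, 16 are among the named genes. Of complex IV, the differences were 1.16 for Cox7a1, 0.40 for Cox5a, 0.35 for Cox6a1, 0.29 for Cox4i1 and 0.24 for Cox6b1. All 4 genes of complex II were among them, with 0.49 for Sdha, 0.36 for Sdhb, 0.40 for Sdhc and 0.38 for Sdhd. Of ATP synthase, Atp5g1 differed by 0.45, Atp5g3 by 0.37, Atp5j2 by 0.35 and Atp5k by 0.32. Ndufa5 of complex I differed by 0.40 and Uqcrc1 of complex III by 0.49. The mitochondrial gene mt-Co3 differed by 0.17. Without the replicate block the count was 0 for both sets, and it was 1 nuclear gene without replicate 1 and 4 without replicate 3. With the block and all replicates, 5.92% of all genes were higher and 6.08% lower. Without the block or without replicate 1, the nuclear share was not above that of all genes.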

How the results depend on the processing

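Over 69 pairs of a named gene and a class in which it was called after cytokines, 757 of 759 values under the alternatives kept their direction and 512 also kept their call. The 2 exceptions were mt-Co3 (0.022) and mt-Nd4 (0.011) in ISC-like cells with a mitochondrial limit of 20%. The pairs were picked by their call in the main fit, and the alternatives share most of its cells, so a kept direction says little. Of the 69 pairs, 53 lost their call without replicate 1, 3 without replicate 2 and 50 without replicate 3. All 69 lost it without the replicate block, and 32 with equal numbers of cells.

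Without the replicate block (that is, without pairing the groups of a replicate), 0 members were called in each class, nuclear or mitochondrial, and the difference between enterocyte-like and ISC-like cells was called for 0 nuclear and 0 mitochondrial genes. Leaving out 1 replicate at a time gave 5 to 58 nuclear calls in enterocyte-like cells, 3 to 18 in Areg-high, 0 to 2 in Ccne-high, 2 to 24 in TA-like and 1 to 6 in ISC-like cells, with 6 in TA-like cells without replicate 1, of which 5 were lower. Mitochondrial calls ranged from 0 to 2, 0 to 3, 0 to 8, 2 to 11 and 0 to 7 in the same order. The difference between classes was called for 1 to 57 nuclear and 0 to 1 mitochondrial genes, alternatives that were chosen after seeing the data. Except for nuclear genes of Ccne-high cells (0 without replicate 1 or 2), the lowest counts were those without replicate 1 or 3. The calls of all genes within a class are not given here for these alternatives.

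With a mitochondrial limit of 20%, nuclear calls in ISC-like cells were 20. Mitochondrial calls were 2, in the opposite direction, in ISC-like, 0 in Ccne-high and 0 in Areg-high cells, and the class difference of mitochondrial genes was 1, lower instead of higher. The summed log2 differences were -0.052 (nuclear, ISC-like), 0.063 (mitochondrial, ISC-like) and -0.083 (mitochondrial, Ccne-high). With equal numbers of cells, nuclear calls were 0 in ISC-like, 0 in Ccne-high, 2 in Areg-high and 26 in enterocyte-like cells, and mitochondrial calls 0 in ISC-like, 2 in Ccne-high and 0 in Areg-high cells; this alternative holds fewer cells. DESeq2 gave 0 nuclear and 3 mitochondrial calls in Ccne-high, 0 mitochondrial in Areg-high cells and 2 in the comparisons with co-cultures. Without a filter on low counts there were 4 nuclear calls in Ccne-high cells, of which 3 were higher, 5, 11 and 0 mitochondrial calls in ISC-like, TA-like and Areg-high cells, and 17 calls in the co-culture comparisons. These 17 calls are not broken down here by gene, class or direction, and the share of all genes is not given beside them. The 0 calls of edgeR in co-culture therefore hold only after the filter. Removal of cells by Scrublet gave 3 nuclear calls in Ccne-high cells and a summed mitochondrial difference of 0.094 in goblet/Paneth-like cells. That value is above 0, whereas without this removal the mean mitochondrial share after cytokines lay below control in these cells. The Scrublet score ranked a known hashtag doublet above a singlet with a probability of 0.64, 0.60, 0.38, 0.74 and 0.64 in the 5 libraries. With so weak a score, this alternative cannot show what doublets within a hashtag contribute. Beyond these constructions, the cause was not tested. The few cells in goblet/Paneth-like sums (10 to 66) limit what could be detected there.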
